A study of Homo sapiens with 8 samples.

Results

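The p53-induced effector genes described here are 35 genes that textbooks and surveys list as switched on by the transcription factor p53 and that carry out its responses: cell cycle brakes, death receptors, death and survival regulators, DNA repair factors and metabolic enzymes. They were taken by name, through probe sets annotated to one of them alone. In the table used, 33 of the 35 had such a probe set, among 19775 genes measured that way. BTG2 and FDXR had none and were not analysed here. All 33 lay above the filter on low values, with 69 probe sets between them, and each gene was read from its brightest one.

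The study used HTETOP, a derivative of the human fibrosarcoma line HT1080 whose gene for topoisomerase II alpha, TOP2A, can be shut off with tetracyclines. Groups were 3 arrays of cells given 100 µM dexrazoxane, 3 arrays of their vehicle, 1 array of cells given 1 µg/ml doxycycline and 1 array of its vehicle, all after 24 h. Doxycycline silences TOP2A in this line, and dexrazoxane, a bisdioxopiperazine, is a catalytic inhibitor of topoisomerase II enzymes. Every array carried RNA pooled from 3 cell passages of this single line. Whether arrays with different numbers stem from separate cultures is not stated in the labels, so the p-values rest on array-to-array spread that may be technical. In bulk RNA of this kind, fewer cells making a transcript and less of it per cell cannot be told apart.

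p53 is held low in unstressed cells by ubiquitin ligases, above all MDM2, itself a p53 target. DNA damage and other stresses stabilise p53, which then binds a response element made of a pair of consensus decamers near its target genes. The products stop the cell cycle, repair DNA, limit oxidants and growth signalling, or lead the cell into death, and some of them restrain p53 again.

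The promoter sequences of the members were searched for the p53 consensus decamer, since it is the sequence that p53 recognises. The RefSeq table (GRCh38.p14) gives 250 bases before and 50 after a transcript start, and it held promoters for 25 of the 33 measured members. The decamer reads the same on both strands, so one search covers both. It was present in 6.63% of all 35116 promoters and in a promoter of 8.06% of the 27305 genes in that table, and in 7 of the 25 members. DDB2 and SESN1 were called higher with dexrazoxane in the paired comparison described further on, and the other 5 were not. The matching stretches are printed for all 7, 5′ to 3′ on the gene's strand, with the decamer in capitals.

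DDB2, chr11:47214975-47215004, plus strand: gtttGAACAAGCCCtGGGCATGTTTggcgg
SESN1, chr6:109008989-109009097, minus strand: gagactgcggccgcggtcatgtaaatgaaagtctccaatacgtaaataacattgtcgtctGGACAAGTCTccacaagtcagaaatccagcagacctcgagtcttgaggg
PLK2, chr5:58460169-58460278, minus strand: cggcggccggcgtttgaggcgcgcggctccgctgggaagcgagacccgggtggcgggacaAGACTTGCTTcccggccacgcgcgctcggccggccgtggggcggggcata
FAS, chr10:88991249-88991358, plus strand: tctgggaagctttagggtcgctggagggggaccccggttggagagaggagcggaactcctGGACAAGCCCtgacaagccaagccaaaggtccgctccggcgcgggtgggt
AEN, chr15:88621246-88621339, plus strand: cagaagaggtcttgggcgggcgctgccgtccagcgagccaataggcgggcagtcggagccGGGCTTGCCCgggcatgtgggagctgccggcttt
RPS27L, chr15:63157487-63157596, minus strand: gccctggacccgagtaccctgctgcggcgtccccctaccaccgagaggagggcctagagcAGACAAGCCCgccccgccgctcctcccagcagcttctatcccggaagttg
PANK1, chr10:89645243-89645325, minus strand: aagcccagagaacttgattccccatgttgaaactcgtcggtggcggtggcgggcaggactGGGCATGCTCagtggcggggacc

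In DDB2 a pair of decamers stood 1 base apart, the first of them 6 bases after a transcript start. Pairs of decamers at most 13 bases apart were found in 10 of the 35116 promoters (0.0285%). Counted from the start, with bases before it negative, the decamer of SESN1 spans positions -49 to -40 and that of AEN positions -34 to -25. A match describes the letters in this window and is not evidence of binding, and of the 12 members called with dexrazoxane 9 had a promoter in the table and 2 of these held a decamer.

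With dexrazoxane the effector genes stood mostly above their vehicle. Of the 33 members, 29 had a mean above that of vehicle, and their median difference on the log2 scale was 0.27, against 0.02 over all 14731 genes tested. TP53INP1, a stress protein that assists p53 and autophagy, and TP53I3, a quinone oxidoreductase, differed most, at 2.06-fold and 1.85-fold over vehicle. The other members ran from 0.865-fold to 1.52-fold.

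The test decided how many of these differences counted as calls. Without regard to array numbers, limma with Benjamini-Hochberg adjustment called 0 of the 33 members and 0.0% of all genes at an adjusted p under 0.05. At an unadjusted p under 0.05 that fit had 11 members higher, against 3.16% of all genes, and 0 members lower, against 2.04%. That was the planned fit, and the labels do not state a pairing. Treated and vehicle arrays of the same number deviated together in these same data, and were taken as pairs for that reason. With the number as a block, limma called 12 of the 33 members higher, against 2.42% of all genes, and 0 lower, against 2.44%. Those 12 were TP53INP1, TP53I3, ACER2, CDKN1A, XPC, DDB2, ANKRA2, PLK3, PHLDA3, SESN1, TRIAP1 and GADD45A. "Called" and "rose" refer to the paired fit from here on. Standard errors (SE) are also those of the paired fit. In the fit without the block the adjusted p of the 12 ran from 0.345 to 0.958.

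The 3 pairs did not contribute alike. Of the members, 27 were higher in each of the 3 pairs, against 25.7% of all genes. The member medians were 0.41 in pair 1, 0.26 in pair 2 and 0.18 in pair 3. Pair 1 held the largest difference for 24 members, against 35.1% of all genes, and vehicle array 1 was the lowest vehicle array for 23, against 35.7%. In the unpaired fit without vehicle array 1 the member median was 0.23, and 10 of the 29 members above vehicle had a difference more than 1.5 times smaller or below 0. With pair 1 left out the paired fit called 2 members, TP53INP1 and TP53I3, against 0.285% of all genes. It called 11 with pair 2 left out, against 2.82%, and 8 with pair 3 left out, against 1.43%. For 14 members all 3 treated arrays lay above all 3 vehicle arrays, against 6.53% of all genes, and for 0 members all lay below, against 3.62% of all genes. Those 14 were the 12 called members with PLK2 and DRAM1.

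**Figure D1:**
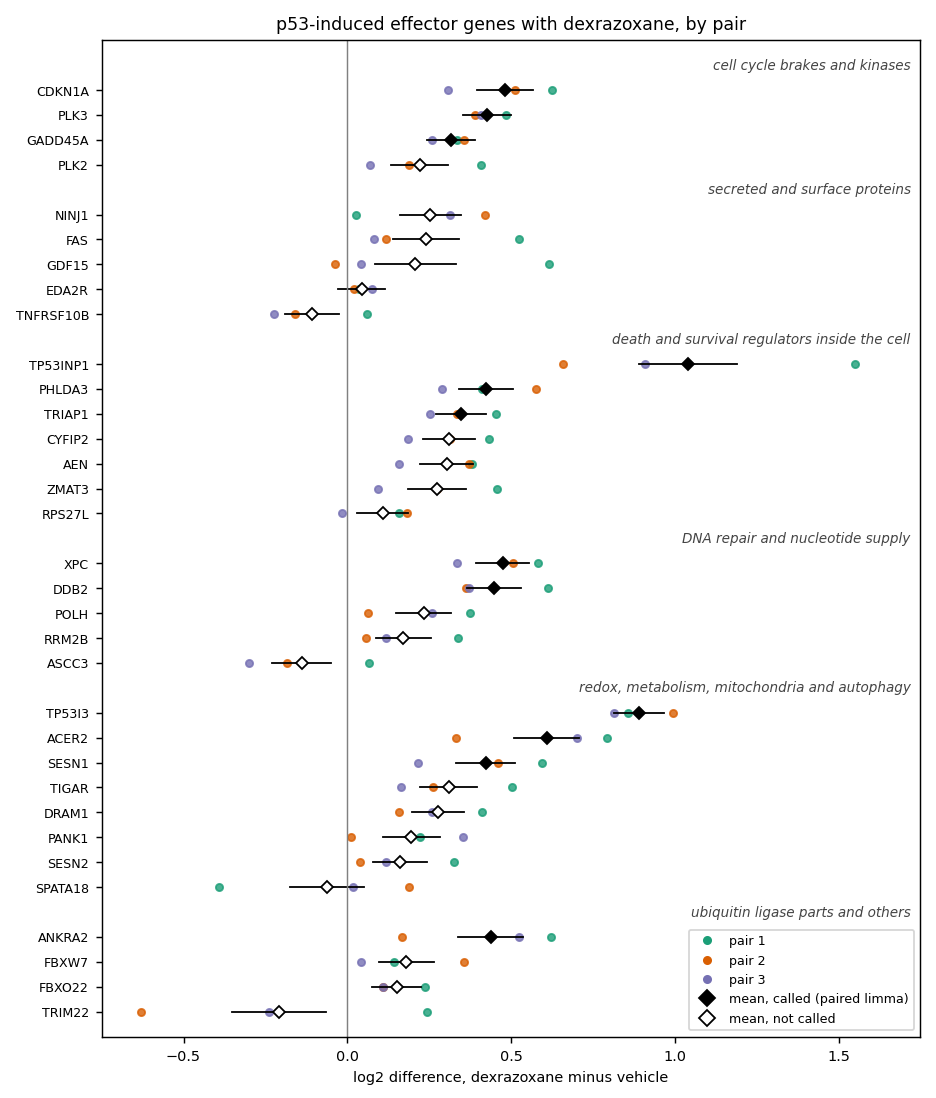
Difference between dexrazoxane and vehicle for each of the 33 measured members, on the log2 scale, grouped by role. Circles are the 3 pairs, diamonds their mean, bars 1 SE of the paired limma fit, and filled diamonds the 12 called members. The means of TP53INP1 and TP53I3 lie farthest to the right, and 24 of the 33 members have their largest difference in pair 1.

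Of the cell cycle brakes and kinases, 3 of the 4 measured genes rose, against 2.42% of all genes. CDKN1A encodes p21, the inhibitor of cyclin-dependent kinases through which p53 halts the cycle. Its log2 level was 10.60, 11.05 and 10.77 on dexrazoxane arrays 1 to 3, against 9.98, 10.53 and 10.46 on vehicle arrays 1 to 3. The groups did not overlap, and the lowest dexrazoxane array exceeded the highest vehicle array by little, while within pairs the gap was wider. The difference was 0.48 ± 0.09 (SE), with an adjusted p of 0.0244 in the paired limma fit. PLK3, a polo-like kinase of the stress response, had 7.48, 7.24 and 7.47 with dexrazoxane and 7.0, 6.85 and 7.07 with vehicle. Its difference of 0.43 ± 0.07 had an adjusted p of 0.0219. GADD45A, which binds PCNA and the stress kinase MAP3K4, had 11.75, 11.80 and 12.01 with dexrazoxane and 11.42, 11.44 and 11.75 with vehicle. Dexrazoxane array 1 exceeded vehicle array 3 of this gene only narrowly, and its difference of 0.32 ± 0.07 was the least of those called, with an adjusted p of 0.0498. The GADD45A call was lost in 7 of 11 alternative paired fits, including each in which a pair was left out. PLK2, a relative of PLK3, differed by 0.22 ± 0.09 without being called (adjusted p 0.182), although its groups did not overlap.

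Of the 5 secreted and surface proteins 0 rose, against 2.42% of all genes, and roles were not compared by a test. GDF15, a secreted cytokine of the TGF-beta superfamily that is much used as a stress marker, had 12.01, 12.60 and 12.89 with dexrazoxane and 11.39, 12.64 and 12.85 with vehicle. Its groups overlapped, and vehicle array 1 lay far below the other vehicle arrays. The pair differences were 0.62, -0.04 and 0.04, and the mean of 0.21 ± 0.12 had an adjusted p of 0.368. Leaving out vehicle array 1 turned the unpaired difference to -0.24. FAS, the death receptor for FAS ligand, had pair differences of 0.52, 0.12 and 0.08, again largest in pair 1. Its mean of 0.24 ± 0.10 became 0.07 in the unpaired fit without vehicle array 1. The FAS probe set that remains when those ending in _s_at and _x_at are set aside differed by 0.02. That probe set was the dimmest for FAS, at a mean log2 level of 5.64, while the others differed by 0.15 to 0.24. NINJ1, a membrane protein that takes part in plasma membrane rupture, had 0.03, 0.42 and 0.31, with pair 1 the smallest. EDA2R, a receptor for ectodysplasin A2, differed by 0.04 ± 0.07. TNFRSF10B, the TRAIL receptor DR5, differed by -0.11 ± 0.08 and was below vehicle in pairs 2 and 3.

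Of the 7 regulators of death and survival inside the cell 3 rose, against 2.42% of all genes. All 7 had means above vehicle, against 54.6% of all genes. TP53INP1 had 8.78, 8.54 and 8.71 with dexrazoxane, against 7.23, 7.88 and 7.80 with vehicle. The dexrazoxane arrays lay close together and well above all vehicle arrays, of which array 1 was the lowest. The difference was 1.04 ± 0.15, with an adjusted p of 0.0144 in the paired limma fit, and 0.78 without pair 1 (adjusted p 0.0316). PHLDA3, a pleckstrin homology protein that holds back the survival kinase AKT, had 8.41, 8.78 and 8.40 with dexrazoxane and 8.0, 8.21 and 8.12 with vehicle. It differed by 0.42 ± 0.08 (adjusted p 0.0316), most in pair 2. TRIAP1, a small mitochondrial protein that counters apoptosis, had 10.97, 11.13 and 11.21 with dexrazoxane and 10.52, 10.80 and 10.96 with vehicle, and differed by 0.35 ± 0.08 (adjusted p 0.0445). The lowest dexrazoxane array of TRIAP1 almost touched the highest vehicle array.

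CYFIP2, a subunit of the WAVE actin regulatory complex, differed by 0.31 ± 0.08 and came next to the bound with an adjusted p of 0.0681. The apoptosis enhancing nuclease AEN differed by 0.30 ± 0.08 (adjusted p 0.0729), and the RNA-binding zinc finger protein ZMAT3 by 0.27 ± 0.09 (adjusted p 0.116). Each of these 3 genes was above vehicle in all 3 pairs. RPS27L, a ribosomal protein paralog, was the brightest member, at a mean log2 level of 13.04 with dexrazoxane and 12.93 with vehicle. It differed by 0.11 ± 0.08.

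Of the 5 genes of DNA repair and nucleotide supply 2 rose, against 2.42% of all genes. XPC, the damage sensor of global nucleotide excision repair, had 9.08, 8.56 and 8.54 with dexrazoxane and 8.49, 8.06 and 8.20 with vehicle. The dexrazoxane arrays exceeded every vehicle array, though pair 1 was higher in both groups, and the difference was 0.47 ± 0.08 (adjusted p 0.0212). DDB2, which recognises ultraviolet damage in chromatin and carries the decamer pair printed above, had 10.17, 10.22 and 10.25 with dexrazoxane and 9.55, 9.85 and 9.87 with vehicle. It differed by 0.45 ± 0.08 (adjusted p 0.0265), with tight dexrazoxane values and a low vehicle array 1. POLH, the translesion polymerase eta, differed by 0.23 ± 0.08 without being called, and RRM2B, the p53-inducible small subunit of ribonucleotide reductase, by 0.17 ± 0.08. For RRM2B the unpaired difference was 0.0005 without vehicle array 1. ASCC3, a helicase of the activating signal cointegrator complex, differed by -0.14 ± 0.09.

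Of the 8 genes of redox balance, metabolism, mitochondria and autophagy 3 rose, against 2.42% of all genes. TP53I3 had 9.56, 9.99 and 9.97 with dexrazoxane, against 8.70, 9.0 and 9.15 with vehicle. Its groups were well apart and its pair differences of 0.86, 1.00 and 0.82 lay close to each other. The mean was 0.89 ± 0.08, with an adjusted p of 0.0043 in the paired limma fit. ACER2, a Golgi ceramidase that makes sphingosine, had 6.26, 6.16 and 6.44 with dexrazoxane and 5.47, 5.83 and 5.74 with vehicle. It differed by 0.61 ± 0.10 (adjusted p 0.0195), less in pair 2 than in the others. SESN1, a sestrin that restrains the growth kinase complex mTORC1, had 9.08, 8.93 and 8.61 with dexrazoxane and 8.49, 8.47 and 8.40 with vehicle. Here the dexrazoxane arrays were spread and the vehicle arrays lay close together, and the difference was 0.42 ± 0.09 (adjusted p 0.0400).

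The other 5 members of that role were not called. TIGAR, a fructose-2,6-bisphosphatase that diverts glucose from glycolysis, differed by 0.31 ± 0.09 (adjusted p 0.0847). DRAM1, a lysosomal membrane protein of autophagy, differed by 0.28 ± 0.08 (adjusted p 0.0913) with groups that did not overlap. PANK1, a pantothenate kinase of coenzyme A synthesis, differed by 0.20 ± 0.09. SESN2, another sestrin, had 8.05, 7.95 and 8.12 with dexrazoxane and 7.72, 7.91 and 8.0 with vehicle, which overlap, and differed by 0.16 ± 0.08. SPATA18, a protein of mitochondrial quality control, had 4.77, 5.59 and 5.27 with dexrazoxane and 5.17, 5.40 and 5.25 with vehicle. It was the dimmest member, its groups overlapped, and it differed by -0.06 ± 0.11.

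In the last role, ubiquitin ligase parts and others, 1 of 4 rose, against 2.42% of all genes. ANKRA2, an ankyrin repeat protein, had 8.93, 8.93 and 9.22 with dexrazoxane and 8.31, 8.76 and 8.69 with vehicle. Its difference was 0.44 ± 0.10 (adjusted p 0.0468), with pair 2 the smallest. The F-box proteins FBXW7 and FBXO22, which choose substrates for SCF ubiquitin ligases, differed by 0.18 ± 0.09 and 0.15 ± 0.07. TRIM22, a tripartite motif protein also induced by interferon, had the lowest difference of the members, at -0.21 ± 0.14. Its pair differences of 0.24, -0.63 and -0.24 did not share a sign.

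**Figure D2:**
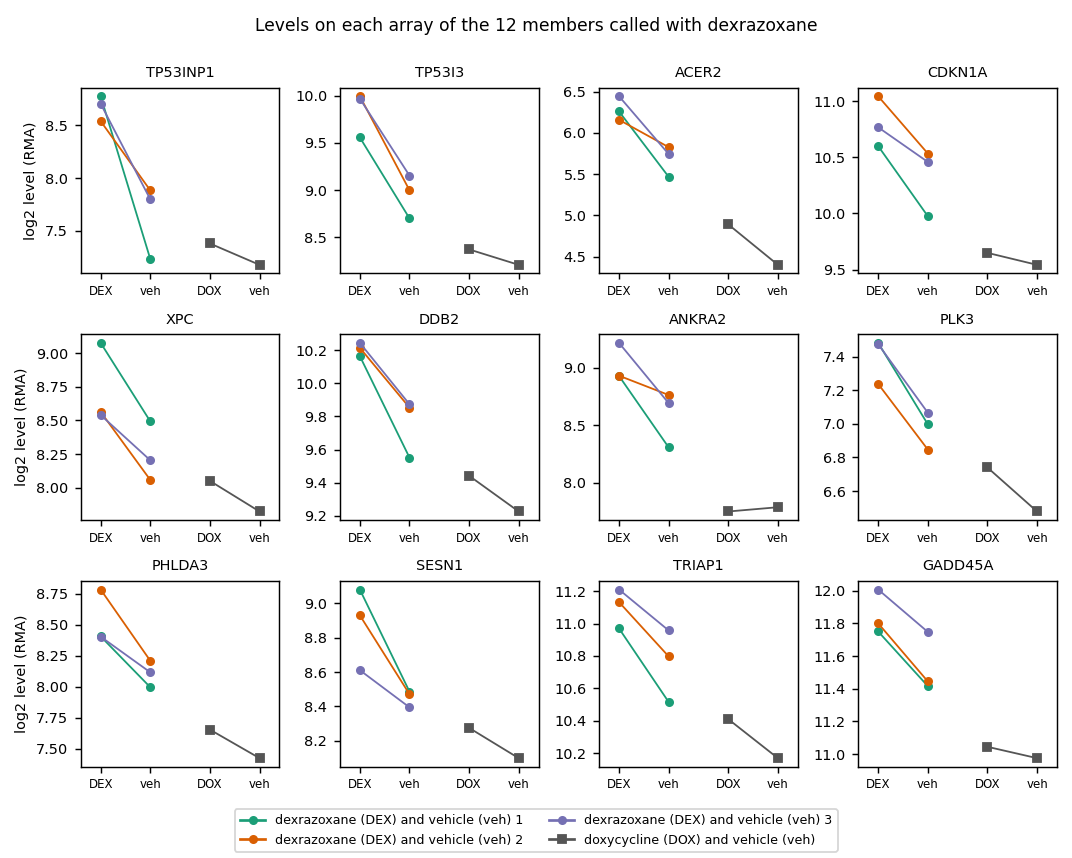
Log2 level on each array of the 12 members called with dexrazoxane, with lines joining a treated array to its vehicle array; each panel has its own axis. In all 12 the 3 dexrazoxane arrays lie above the 3 vehicle arrays, and the doxycycline array lies above its vehicle in 11, the exception being ANKRA2.

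With doxycycline the members were mostly slightly above vehicle. TOP2A itself had a log2 level of 6.02 with doxycycline and 11.98 with vehicle, so the silencing was present on this array. The comparison has 1 array a side and no replicate check, so the values are a description with no test. Of the 33 members, 27 were above vehicle, against 54.4% of all genes, and the median difference was 0.11, against 0.02 over all genes. Past 1.2-fold, 3 members were higher, against 2.5% of all genes, and 1 was lower, against 3.43%. The SD of the differences of all genes was 0.15, and that of the members was 0.15 too.

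ACER2 had a log2 level of 4.89 with doxycycline and 4.40 with vehicle, a difference of 0.49 or 1.41-fold. The vehicle level of ACER2 is below the level used as the filter on low values, a log2 level of 4.83, and the doxycycline level just above it, so the fold is set against a level that does not pass the filter. SESN2 had 7.82 with doxycycline and 7.40 with vehicle, a difference of 0.42. The other SESN2 probe set differed by 0.12, short of 1.2-fold. POLH had 8.23 with doxycycline and 7.96 with vehicle, a difference of 0.27. PLK3 came next, at 6.74 with doxycycline and 6.48 with vehicle, just short of 1.2-fold. SPATA18 was the member lower past 1.2-fold, at 4.46 with doxycycline and 4.76 with vehicle, both below the level used as the filter. Members without much difference included CDKN1A, at 9.65 with doxycycline and 9.54 with vehicle, and GADD45A, at 11.04 with doxycycline and 10.97 with vehicle. GDF15 had 11.18 with doxycycline and 10.95 with vehicle. The members with the greatest dexrazoxane differences, TP53INP1 and TP53I3, stood 0.20 and 0.16 above vehicle with doxycycline.

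The treatments were set side by side, since they have separate vehicle arrays. Of the 33 members 24 were above vehicle in both comparisons, against 34.1% of all genes. With dexrazoxane above and doxycycline below vehicle there were 5, namely NINJ1, RPS27L, PANK1, FBXW7 and ANKRA2. The opposite held for 3, TNFRSF10B, ASCC3 and TRIM22, and SPATA18 was below in both. Across the 33 members the 2 sets of differences had a Pearson correlation of 0.38 and a Spearman correlation of 0.43, a description over genes read from the same arrays. The same Pearson correlation over all genes tested was 0.23. Taken by pair, the members' doxycycline differences correlated with pair 1 at 0.56, with pair 2 at 0.12 and with pair 3 at 0.30. Levels were not compared between the treatments, because the doxycycline and its vehicle array had median log2 levels of 4.81 and 4.82 and the other 6 arrays 5.49 to 5.57.

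**Figure D3:**
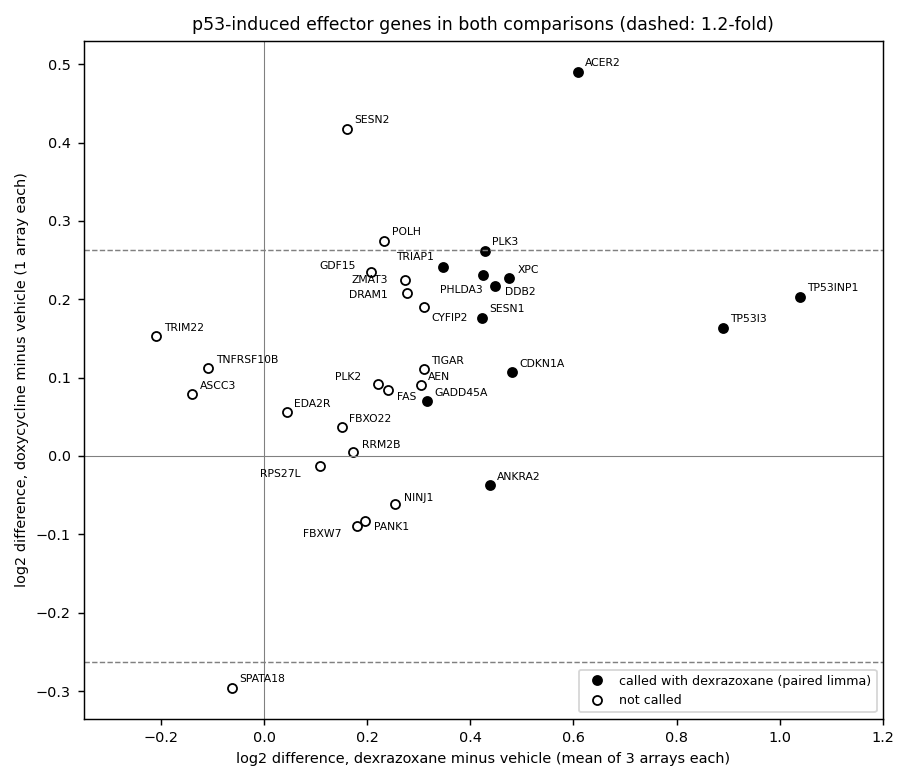
Log2 difference with doxycycline (1 array each, vertical) against that with dexrazoxane (3 arrays each, horizontal) for the 33 members; filled points are called with dexrazoxane, and dashed lines mark 1.2-fold with doxycycline. ACER2 stands high on both axes, TP53INP1 and TP53I3 lie far right at modest height, and SPATA18 is alone at the bottom.

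Several members were read by more than 1 probe set, which may detect different transcript ends. Of the 14 members with more than 1 above the filter, all probe sets had one sign in 9 with dexrazoxane and in 10 with doxycycline. TP53INP1 rested on its brightest probe set, with a difference of 1.04, while a dimmer one differed by 0.16 and the dimmest, below the filter, by -0.05. With the mean of its probe sets, TP53INP1 differed by 0.38 (adjusted p 0.0479 in the paired limma fit). The other probe sets of PLK3 differed by 0.06 and 0.05, and with the mean of its 3 probe sets PLK3 was not called (0.18, adjusted p 0.173). The pair of PHLDA3 probe sets gave 0.42 and 0.40, and the 5 of ZMAT3 gave 0.17 to 0.37. For ASCC3 the dimmer probe set differed by 0.29, opposite to the brightest, so that the mean over both was 0.07. One probe set of RPS27L differed by -0.21, with the others at 0.11 and 0.21.

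**Figure D4:**
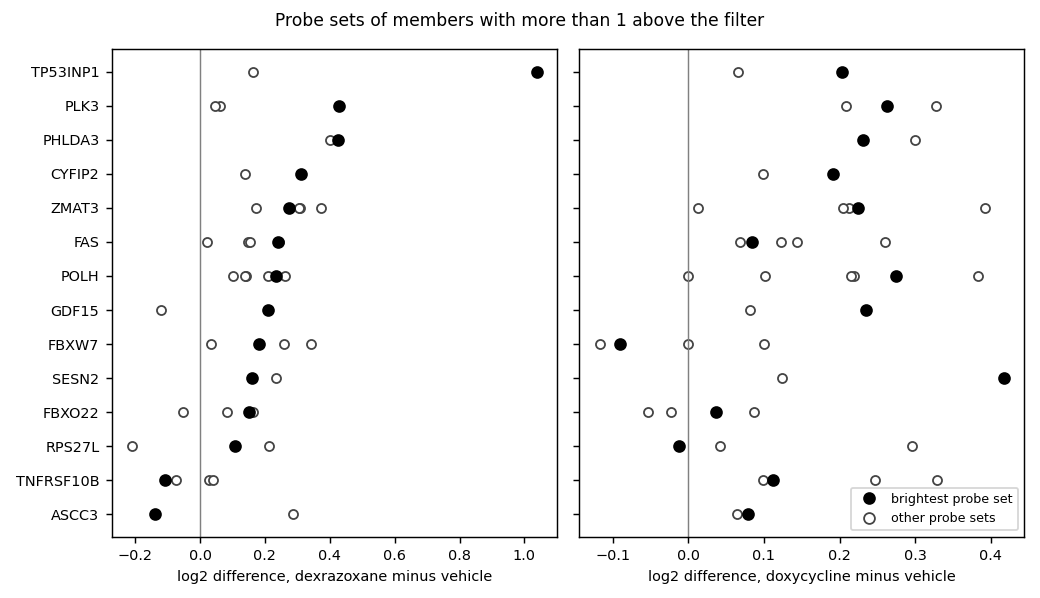
Log2 difference of every probe set above the filter for the 14 members with more than 1, with dexrazoxane (left) and doxycycline (right); filled points are the brightest probe set of the gene. The probe sets of PHLDA3 and ZMAT3 lie together in the left panel, whereas those of TP53INP1 and PLK3 are spread.

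The closest relatives of the members, 26 of which were tested, did not stand above vehicle as a group. Their median dexrazoxane difference was 0.03, with 1 called higher and 2 called lower, against 2.42% and 2.44% of all genes. TP53INP2, the paralog of TP53INP1 in autophagy, had 7.79, 7.74 and 7.68 with dexrazoxane and 7.32, 7.23 and 7.16 with vehicle. Its groups were apart and it rose by 0.50 ± 0.07 (adjusted p 0.0146 in the paired limma fit). The other tested relatives listed for called members were not called. CDKN1B, the p27 inhibitor, differed by -0.04 ± 0.08 beside 0.48 for CDKN1A. GADD45B and GADD45G differed by 0.16 ± 0.08 and 0.26 ± 0.08 beside 0.32 for GADD45A. PHLDA1 and PHLDA2 differed by -0.08 ± 0.07 and -0.11 ± 0.09 beside 0.42 for PHLDA3. SESN3 differed by 0.40 ± 0.18 with uneven pairs of 0.93, -0.20 and 0.48, and ACER3 by -0.17 ± 0.08. RFXANK, a relative of ANKRA2, differed by 0.30 ± 0.09 (adjusted p 0.110). The relatives called lower, named after their values were seen, were RRM2, the S-phase subunit of ribonucleotide reductase (-0.52 ± 0.08), and PLK4, the kinase of centriole duplication (-0.40 ± 0.07). Their p53-inducible counterparts RRM2B and PLK2 differed by 0.17 and 0.22 without being called. PLK3, the other polo-like kinase among the members, was called higher, at 0.43. Differences between members and relatives were not tested.

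Of the regulators of p53, 11 were tested, 2 rose and 0 fell, against 2.42% and 2.44% of all genes. MDM2 had 11.43, 11.53 and 11.54 with dexrazoxane and 10.80, 11.09 and 10.89 with vehicle, and rose by 0.58 ± 0.08 (adjusted p 0.0123 in the paired limma fit). PPM1D, the phosphatase WIP1 that ends the damage response, had 8.76, 8.51 and 8.50 with dexrazoxane and 8.19, 7.98 and 8.23 with vehicle, and rose by 0.46 ± 0.09 (adjusted p 0.0286). Both are feedback targets of p53, and their groups did not overlap. CCNG1, cyclin G1, differed by 0.25 ± 0.09 (adjusted p 0.133). The damage kinase ATR differed by -0.20 ± 0.07 (adjusted p 0.157). The median of the 11 was 0.10.

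Of 9 further p53-induced death genes tested, 1 rose and 0 fell, against 2.42% and 2.44% of all genes. PERP, a membrane protein of desmosomes and apoptosis, had 12.08, 12.17 and 12.01 with dexrazoxane and 11.69, 11.79 and 11.62 with vehicle, and rose by 0.39 ± 0.07 (adjusted p 0.0277). PMAIP1, the BH3-only protein NOXA, differed by 0.20 ± 0.08 (adjusted p 0.188). CASP10, an initiator caspase, differed by 0.18 ± 0.10, and TP53AIP1, a mitochondrial apoptosis protein, by 0.13 ± 0.07. The median of the 9 was 0.09.

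Among 36 other p53-induced genes tested, with a median of 0.20, 6 rose and 0 fell, against 2.42% and 2.44% of all genes. The transcriptional regulator SERTAD1 rose by 0.65 ± 0.11 (adjusted p 0.0190) and TAP1, a subunit of the antigen peptide transporter, by 0.61 ± 0.09 (adjusted p 0.0162). SFN, the 14-3-3 sigma protein that holds cells before mitosis, rose by 0.49 ± 0.09 and the diacylglycerol kinase DGKA by 0.49 ± 0.10. With doxycycline the same 4 differed by -0.01, 0.12, -0.09 and 0.10 from vehicle, in the order named. In the 3 lists of p53 regulators, death genes and other induced genes 0 tested genes passed 1.2-fold with doxycycline in either direction. Of all genes 2.5% were higher and 3.43% lower past that fold, so few were to be counted in lists of this size.

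**Figure D5:**
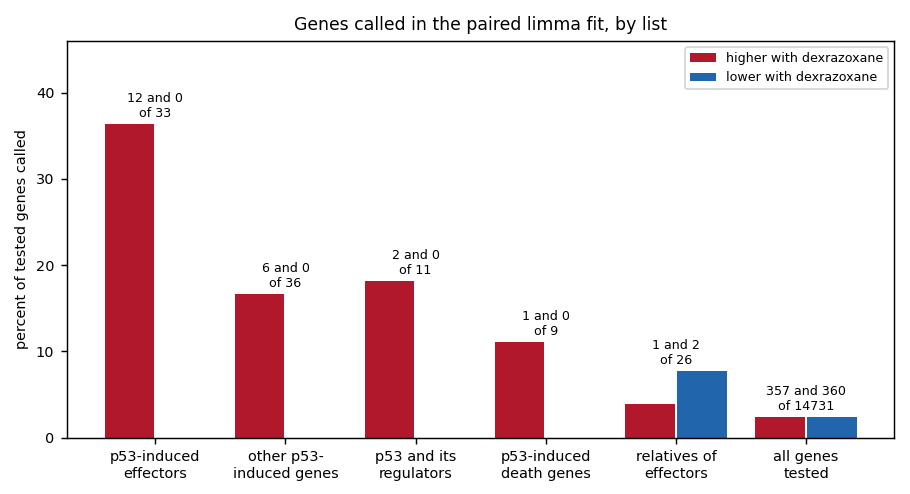
Percent of tested genes called in the paired limma fit, higher (red) and lower (blue) with dexrazoxane, for the members, 4 further lists and all genes; numbers above the bars give the counts. The members stand at 36.4% higher and 0 lower, against 2.42% and 2.44% of all genes.

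TOP2A differed by -1.57 ± 0.12 with dexrazoxane (adjusted p 0.0043 in the paired limma fit), so both treatments had less of its transcript than their vehicles. Of the markers of other cell types, mesenchymal genes, which fit a fibrosarcoma line, had 9 of 11 above the filter and 0 called. Only 3 of 6 epithelial, 2 of 6 leukocyte and 3 of 5 endothelial markers were above it. KRT8, a keratin, was the marker called, at 0.51 ± 0.10. Its dexrazoxane arrays, at 10.44, 10.35 and 9.85, overlapped its vehicle arrays, at 10.19, 9.60 and 9.32. In limma without the block its unadjusted p was 0.0675. KRT8 and KRT18 were bright, at mean log2 levels of 9.93 and 11.19 over all arrays. The summed log2 level of the 6 epithelial markers was 39.3 to 40.1 with dexrazoxane and 38.4 to 39.0 with vehicle, and its part in the members' differences was not tested.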

How the data were processed

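Values are log2 levels per probe set on 8 Affymetrix arrays, which the authors deposited after RMA according to the submitters' processing notes. RMA removes background, evens out the arrays and summarises probes. The sources used here do not give whether all arrays were normalized together. Probe sets were named through the supplied platform annotation: of 54675, 41097 carried 1 symbol, 1801 several and 11777 were unnamed there. Each gene was read from its brightest probe set (mean of 8 arrays). The 14731 genes at or above a log2 level of 4.83, the 40th percentile over probe sets, were tested.

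Dexrazoxane was compared with its vehicle in limma 3.58.1 under R 4.3.3 (lmFit, eBayes, two-sided), with Benjamini-Hochberg adjustment over all genes tested and a bound of 0.05. The planned fit had no block. The labels use the numbers 1 to 3 in both groups, and same-numbered arrays deviated from their group means together, with correlations of 0.823, 0.574 and 0.716, against -0.629 to 0.181 for arrays of different numbers. The numbers were therefore taken as pairs, a decision that rests on these same data. Deviations from a group mean cancel out within each gene, so positive same-number correlations by themselves push the others towards negative values. A second fit held the number as a block. It called 357 genes higher and 360 lower. The procedure was also run on simulated data in which same-numbered arrays were made to share their deviations. That simulation therefore cannot check the choice of pairs. Doxycycline has 1 array a side, so differences past 1.2-fold were counted without a test. The number of arrays limits the precision.

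The members, lists and rules were chosen with earlier results of these data known. Every member is named, with values on each array for those called in either fit, for the 3 with the largest doxycycline difference, and for CDKN1A and GDF15. Named besides are relatives of called members, up to 4 genes of lowest unpaired p from each p53 list, and TOP2A. Alternatives changed the filter, the probe sets used, array centring, quantile normalization, the variance model and the arrays included. Coordinates and promoter sequences are RefSeq's, of GRCh38.p14.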

Additional observations from a re-analysis of the deposited data

How the results depend on the processing

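The count of members called higher depended on the replicate block: it was 12 with the block and 0 without it, where all other alternatives also gave 0. With the block, testing every probe set on its own called 2 members (TP53INP1 and TP53I3), and leaving out each pair in turn gave 2 to 11. The other alternatives with the block gave 8 to 17, and 0 members were called lower under any of them. Of the called members, TP53INP1 and TP53I3 kept the call in all 11 alternative paired fits, GADD45A in 4, ANKRA2 and TRIAP1 in 6 each, PLK3 in 7, SESN1 in 8 and ACER2 in 8 of 10; the other 4 kept it in 9. With the mean of probe sets, 5 members passed 1.2-fold higher with doxycycline and 0 lower. With a filter at the 60th percentile 2 were higher and 0 lower, since ACER2 and SPATA18 are then not tested. With the mean of probe sets the ASCC3 dexrazoxane difference was 0.0738 in both fits. Leaving out 1 array at a time, without the block, gave -0.24 to 0.49 for GDF15, -0.034 to 0.13 for EDA2R, -0.25 to 0.16 for SPATA18, 0.0005 to 0.30 for RRM2B and 0.07 to 0.36 for FAS. Leaving out 1 pair, with the block, gave -0.19 to 0.10 for SPATA18 and -0.43 to 0.0019 for TRIM22. The cause of these changes was not tested. For TP53INP1 the mean of probe sets put the doxycycline difference at -0.02. The members' dexrazoxane values in the alternatives, the fit without the block included, were set against the paired fit. Of these, 335 kept their direction and side of the bound, 46 fell short of the bound, 7 newly passed it and 3 changed sign. The 46 include the 12 calls lost without the block. The median difference of the members with doxycycline ran from 0.10 to 0.14.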
